A study of Mus musculus with 8 samples.

Results

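The genes described here are 10 of the 30211 genes counted in hippocampal nuclei: the glucocorticoid-responsive genes Fkbp5, Sgk1, Tsc22d3, Zbtb16, Plin4, Pdk4, Errfi1 and Cdkn1a and the corticosteroid receptor genes Nr3c1 and Nr3c2, found by their symbols. They were picked from the Fkbp5 values, because Fkbp5 differed over 20-fold between mice whatever the genotype label. Its spread between mice is therefore given as a description, with no test. Single-nucleus RNA sequencing with 3′ counting on the 10X Genomics platform was done on hippocampi of C57BL/6 mice, and each library was taken as 1 mouse. Of the 8 libraries, 3 were WT and 3 were GKO, all aged 7 mo, 1 was J20;WT and 1 was J20;GKO, both aged 6 mo. GKO mice carry a constitutive deletion of exons of Gsap, which encodes the γ-secretase activating protein, made by crossing floxed mice with a CMV-Cre line that acts in the whole body. In J20 mice the human PDGFB promoter, which is active mainly in neurons, drives an APP transgene of human sequence that carries the Swedish and Indiana mutations. The J20;GKO mouse carries both this transgene and the Gsap deletion. After the filter on nuclei the libraries held 21020159 to 43310978 unique molecular identifiers (UMIs) in 2731 to 5252 nuclei.

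Glucocorticoids reach the brain from the adrenal cortex and bind intracellular receptors that move to the nucleus and act on target genes. The mineralocorticoid receptor, the product of Nr3c2, has the higher affinity for corticosterone and is abundant in hippocampal neurons, whereas the glucocorticoid receptor, the product of Nr3c1, is present in most brain cells and is engaged mainly at the daily peak of the hormone and in stress. Fkbp5, an immunophilin bound to the Hsp90 complex of the receptor, lowers the affinity of the receptor for its hormone and is itself induced by it.

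The labels were read against the data first. Gsap stood at 22.5, 23.0 and 22.3 CPM (the UMIs of a gene in every 1000000 UMIs of the library or cell class) over all nuclei of WT 1, 2 and 3, and at 19.8, 21.75 and 22.0 CPM in GKO 1, 2 and 3. The ranges did not overlap over all nuclei but overlapped within each of the 5 classes, with the GKO mean above the WT mean in oligodendrocytes (2.99 against 2.73 CPM), OPCs (164 against 156 CPM) and neurons (6.85 against 6.39 CPM). Counts per gene do not show which exons or introns they come from, and whether intronic reads were counted is not stated, so they do not check the deletion, and the genotype of a mouse is taken from its label. The labels give no sex. Xist, the transcript that silences an X chromosome in females, was at 2259 CPM in WT 1, 2135 CPM in GKO 1 and 2410 CPM in J20;GKO, and at 1.68 to 3.00 CPM in the other 5 libraries. The Y-linked Eif2s3y was at 119.5 to 251 CPM in those 5 and at 0.0890 to 0.115 CPM in WT 1, GKO 1 and J20;GKO. The deposited data also carry a date for each library, whose meaning is not stated. WT 1 and GKO 1 share the earliest date, J20;WT has the latest, and the other 5 libraries share the date between them. Among the 6 WT and GKO mice the date and the sex-linked genes divide the libraries in the same way and cannot be told apart. Any 2 libraries shared 2 to 27 cell barcodes, over 28 pairs of libraries, and none held the same counts.

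Nuclei were assigned to classes by marker genes, which gave 7063 oligodendrocytes, 2723 astrocytes, 2093 microglia, 1120 oligodendrocyte precursor cells (OPCs) and 17453 neurons, and left 3.88% of the nuclei without a class. Own markers were the most abundant list in each class, with those of other classes also present. In oligodendrocytes the summed level of their 10 markers was 22112 CPM in WT 1, 30078 CPM in WT 2, 30000.3 CPM in WT 3, 23342 CPM in GKO 1, 25618 CPM in GKO 2, 28538 CPM in GKO 3, 34573 CPM in J20;WT and 33063 CPM in J20;GKO, against 336 to 414 CPM for the astrocyte markers and 1018 CPM in J20;WT to 1819 CPM in WT 1 for the neuron markers. In OPCs the astrocyte markers reached 4047 to 4987 CPM. In microglia the own markers were lowest in GKO 1 and WT 1, at 14692 and 15023 CPM, and highest in J20;WT, at 26230.4 CPM. Astrocyte markers in microglia were highest in WT 1 and GKO 1, at 970.6 and 944.4 CPM, against 321.6 to 605.9 CPM in the other 6 libraries. The own markers of astrocytes, OPCs and neurons spanned 24240 to 26054, 14675 to 16126 and 23744 to 29863 CPM. Transcripts of choroid plexus cells reached other classes in some libraries. The summed level of the 7 choroid plexus markers in astrocytes was 1024 CPM in WT 1 and 1817 CPM in GKO 1, against 62.4 to 449 CPM in the other 6 libraries, with Ttr, a thyroxine carrier secreted by the choroid plexus, making up 76.0% of it. In microglia the same sum was 1086 and 1037 CPM in WT 1 and GKO 1 and 27.75 to 455 CPM in the others. In OPCs it was 1013 and 1142 CPM in WT 1 and GKO 1 and 293 to 662 CPM in the others, and in neurons 435 and 367 CPM against 45.0 to 322 CPM. In oligodendrocytes, which express the marker Enpp2 themselves, it was 1601 to 2562 CPM, but Ttr alone was at 693.7 and 772.6 CPM in WT 1 and GKO 1 and at 3.91 to 488 CPM in the others. J20;WT, the library lowest in Fkbp5, came next after WT 1 and GKO 1 in astrocytes, microglia, OPCs and neurons, and in Ttr in oligodendrocytes. The 2 libraries highest in Fkbp5 were thus also those with the least own markers in oligodendrocytes, microglia and neurons and with the most Ttr in all 5 classes, and the part of these differences in the values below was not tested.

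Promoter sequences were looked up to show the DNA letters near the start sites of these genes. RefSeq windows from 250 bases before to 50 after a start site (GRCm38.p6) matched 8 members with 17 windows. Zbtb16 had no entry, and Nr3c1 was left out of the search for member windows. The 15-letter palindrome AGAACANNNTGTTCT, the idealised binding sequence of the glucocorticoid receptor dimer, was found in 3 of 32851 mouse windows of this length (0.00913%), and 1 of those 3 is a window of Sgk1. Its 6-letter part AGAACA, searched on both strands and therefore also matched inside the longer motif, was found in 19% of all windows and in 4 of the 17 member windows, of which 3 belong to Sgk1 and 1 to Tsc22d3. The counts are 3′ counts per gene and do not tell which start site was used. Shown are the Sgk1 window with the full match, which begins 189 bases before the start site, the Tsc22d3 window with a match, 185 bases before it, and the window of Fkbp5, in which these letters do not occur. Capitals mark the 15-letter match in Sgk1 and the 6-letter match in Tsc22d3. In the Sgk1 window a further 6-letter match, left in lower case, lies 242 bases before the start site.
Sgk1, chr10:21993640-21993939, plus strand: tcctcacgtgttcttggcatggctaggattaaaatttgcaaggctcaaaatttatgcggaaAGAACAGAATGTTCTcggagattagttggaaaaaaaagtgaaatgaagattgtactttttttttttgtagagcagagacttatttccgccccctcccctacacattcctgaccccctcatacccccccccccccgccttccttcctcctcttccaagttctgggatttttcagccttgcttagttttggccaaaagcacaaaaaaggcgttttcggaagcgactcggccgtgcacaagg
Tsc22d3, chrX:140600473-140600772, minus strand: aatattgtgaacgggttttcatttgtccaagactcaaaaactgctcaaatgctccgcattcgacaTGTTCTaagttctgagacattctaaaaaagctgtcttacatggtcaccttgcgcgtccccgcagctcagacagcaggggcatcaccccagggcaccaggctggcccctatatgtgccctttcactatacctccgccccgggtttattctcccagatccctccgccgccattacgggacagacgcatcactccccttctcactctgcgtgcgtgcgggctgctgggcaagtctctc
Fkbp5, chr17:28486100-28486399, minus strand: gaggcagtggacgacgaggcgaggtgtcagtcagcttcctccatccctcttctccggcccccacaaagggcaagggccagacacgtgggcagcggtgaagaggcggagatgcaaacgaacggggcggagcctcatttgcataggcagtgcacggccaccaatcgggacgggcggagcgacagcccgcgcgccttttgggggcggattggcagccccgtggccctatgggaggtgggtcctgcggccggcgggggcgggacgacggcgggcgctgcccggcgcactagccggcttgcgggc

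Fkbp5 (ENSMUSG00000024222, chromosome 17, 28399094 to 28517527, minus strand, GRCm38) was detected in each class of each mouse and differed between mice in every class. In oligodendrocytes it was at 539.8, 36.6 and 20.3 CPM in WT 1, 2 and 3, at 596.5, 203 and 53.2 CPM in GKO 1, 2 and 3, at 16.6 CPM in J20;WT and at 222 CPM in J20;GKO. WT 1 and GKO 1 were the highest and J20;WT the lowest, and the WT mean of 199 ± 295 CPM (SD, n = 3) and the GKO mean of 284 ± 281 CPM (SD, n = 3) came from ranges that overlapped. The highest library was 36.0 times the lowest (exact 95% interval 22.4 to 62.0, which here and below covers counting error only). In astrocytes Fkbp5 was at 272, 20.05 and 12.1 CPM in WT mice, at 369.5, 38.3 and 15.5 CPM in GKO mice, at 2.46 CPM in J20;WT and at 125 CPM in J20;GKO. The order was again led by GKO 1 and WT 1 and closed by J20;WT. The J20;WT value rests on 2 UMIs, so that the ratio of highest to lowest, 150.5, has an interval from 41.5 to 1246, and without the J20 libraries the ratio was 30.5.

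Microglia had the highest Fkbp5 levels. There it was at 2207, 494 and 184.5 CPM in WT mice, at 2514, 1582 and 769.7 CPM in GKO mice, at 149.0 CPM in J20;WT and at 1732 CPM in J20;GKO, a ratio of highest to lowest of 16.9 (12.9 to 22.6). Oligodendrocytes and astrocytes are thus above the 20-fold difference that picked the members, and microglia below it. In OPCs Fkbp5 was at 254.5, 88.9 and 93.4 CPM in WT mice, at 292, 194 and 108 CPM in GKO mice, at 61.0 CPM in J20;WT and at 184 CPM in J20;GKO, with a ratio of 4.78 (3.03 to 7.97). In neurons it was at 154.0, 101 and 85.4 CPM in WT mice, at 172, 126 and 101 CPM in GKO mice, at 55.4 CPM in J20;WT and at 127 CPM in J20;GKO, with a ratio of 3.11 (2.90 to 3.34) that was 2.02 without the J20 libraries. WT 1 and GKO 1 were the 2 highest libraries in 5 of 5 classes and J20;WT the lowest in 5 of 5. The WT and GKO ranges overlapped in each class, at means of 962 ± 1090 and 1622 ± 873 CPM (SD, n = 3 each) in microglia, where the spread within a genotype exceeded the difference between the means.

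The share of nuclei with an Fkbp5 UMI showed the same libraries as high and low after each nucleus was thinned to 1000 UMIs, with shallower nuclei left out. In oligodendrocytes the thinned share was 1.64% in J20;WT (3.16% before thinning, with 6 nuclei left out) and 41.1% in GKO 1 (69.0% before thinning, with 15 left out). In astrocytes it was 0.333% in J20;WT (0.943% before thinning, 2 left out) and 27.1% in GKO 1 (60.5% before thinning, 17 left out). In microglia it was 13.5% in J20;WT (20.8% before thinning, 4 left out) and 87.5% in GKO 1 (97.45% before thinning, 5 left out), a ratio of 6.497 where the CPM ratio was 16.9. The share rises with the mean, so it does not separate more nuclei with the transcript from more transcript in each. It also has a ceiling, which GKO 1 was near in microglia, so there its ratio and the CPM ratio are unlike measures. No class here is known to lack Fkbp5, so no background share could be set beside these. The median nucleus held 1856 to 2580.5 UMIs in oligodendrocytes and 6866.5 to 12134 in neurons, depending on the library.

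**Figure D1:**
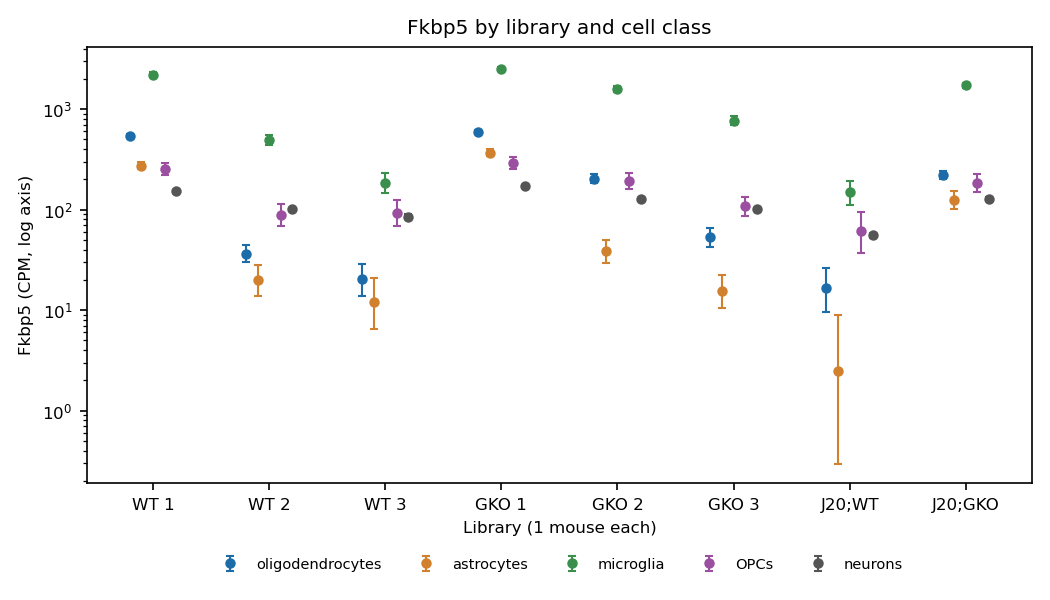
Fkbp5 in CPM on a log axis for each of 8 libraries (horizontal axis) in 5 cell classes, with bars showing exact Poisson 95% intervals. WT 1 and GKO 1 are the highest libraries and J20;WT is the lowest in each class, from 2.46 CPM in J20;WT astrocytes to 2514 CPM in GKO 1 microglia.

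Of the 50 combinations of a member and a class, 43 had at least 50 UMIs over the 8 libraries. The other 7 were too low to describe by library: Tsc22d3 in OPCs with 35 UMIs, Plin4 with 9 in microglia and 12 in OPCs, Pdk4 with 1 and 5 and Cdkn1a with 20 and 12 in these same classes.

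In oligodendrocytes several other targets of the receptor also spread widely. Sgk1 (ENSMUSG00000019970, chromosome 10, 21882184 to 21999903, plus strand), the serum- and glucocorticoid-regulated kinase that acts on ion channels and transporters, was at 759.9, 358 and 117 CPM in WT mice, at 937, 719.5 and 482 CPM in GKO mice, at 13.6 CPM in J20;WT and at 531 CPM in J20;GKO. Its ratio of highest to lowest was 68.7 (40.9 to 126), but this rests on J20;WT, which stood far below the other 7 libraries, at 117 to 937 CPM. Zbtb16 (ENSMUSG00000066687, chromosome 9, 48654297 to 48836222, minus strand), a zinc finger transcription factor, was at 1274, 124 and 55.5 CPM in WT mice, at 1186, 415 and 189 CPM in GKO mice, at 28.25 CPM in J20;WT and at 456 CPM in J20;GKO. The 2 libraries of the earliest date were the highest again, and WT and GKO overlapped. Plin4 (ENSMUSG00000002831, chromosome 17, 56100591 to 56109803, minus strand), a coat protein of lipid droplets, was at 121, 8.45 and 2.03 CPM in WT mice, at 149, 28.0 and 10.9 CPM in GKO mice, at 1.95 CPM in J20;WT, which rests on 2 UMIs, and at 37.95 CPM in J20;GKO. Cdkn1a (ENSMUSG00000023067, chromosome 17, 29090976 to 29100727, plus strand), an inhibitor of cyclin-dependent kinases, was at 51.6, 0.704 and 0 CPM in WT mice, at 69.0, 10.4 and 4.48 CPM in GKO mice, at 0 CPM in J20;WT and at 11.2 CPM in J20;GKO. Against a floor of 3 UMIs in the deeper of the 2 libraries at 0, Cdkn1a in GKO 1 was at least 34.0-fold higher.

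The other target genes spread less in oligodendrocytes, with the same libraries at the top. Tsc22d3 (ENSMUSG00000031431, chromosome X, 140539528 to 140600659, minus strand), which encodes the glucocorticoid-induced leucine zipper protein, was at 249.8, 144 and 118 CPM in WT mice, at 244, 220.4 and 174 CPM in GKO mice, at 84.75 CPM in J20;WT and at 190.3 CPM in J20;GKO. Errfi1 (ENSMUSG00000028967, chromosome 4, 150853919 to 150868892, plus strand), an inhibitor of the epidermal growth factor receptor, was at 229, 108 and 68.3 CPM in WT mice, at 263, 146 and 116 CPM in GKO mice, at 68.2 CPM in J20;WT and at 123 CPM in J20;GKO. Pdk4 (ENSMUSG00000019577, chromosome 6, 5483351 to 5496309, minus strand), a kinase that shuts off pyruvate dehydrogenase, was at 50.4, 23.2 and 20.97 CPM in WT mice, at 64.4, 40.7 and 17.3 CPM in GKO mice, at 16.6 CPM in J20;WT and at 29.0 CPM in J20;GKO. Their ratios of highest to lowest were 2.95, 3.85 and 3.89, and for each of the 3 the WT and GKO ranges overlapped.

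**Figure D2:**
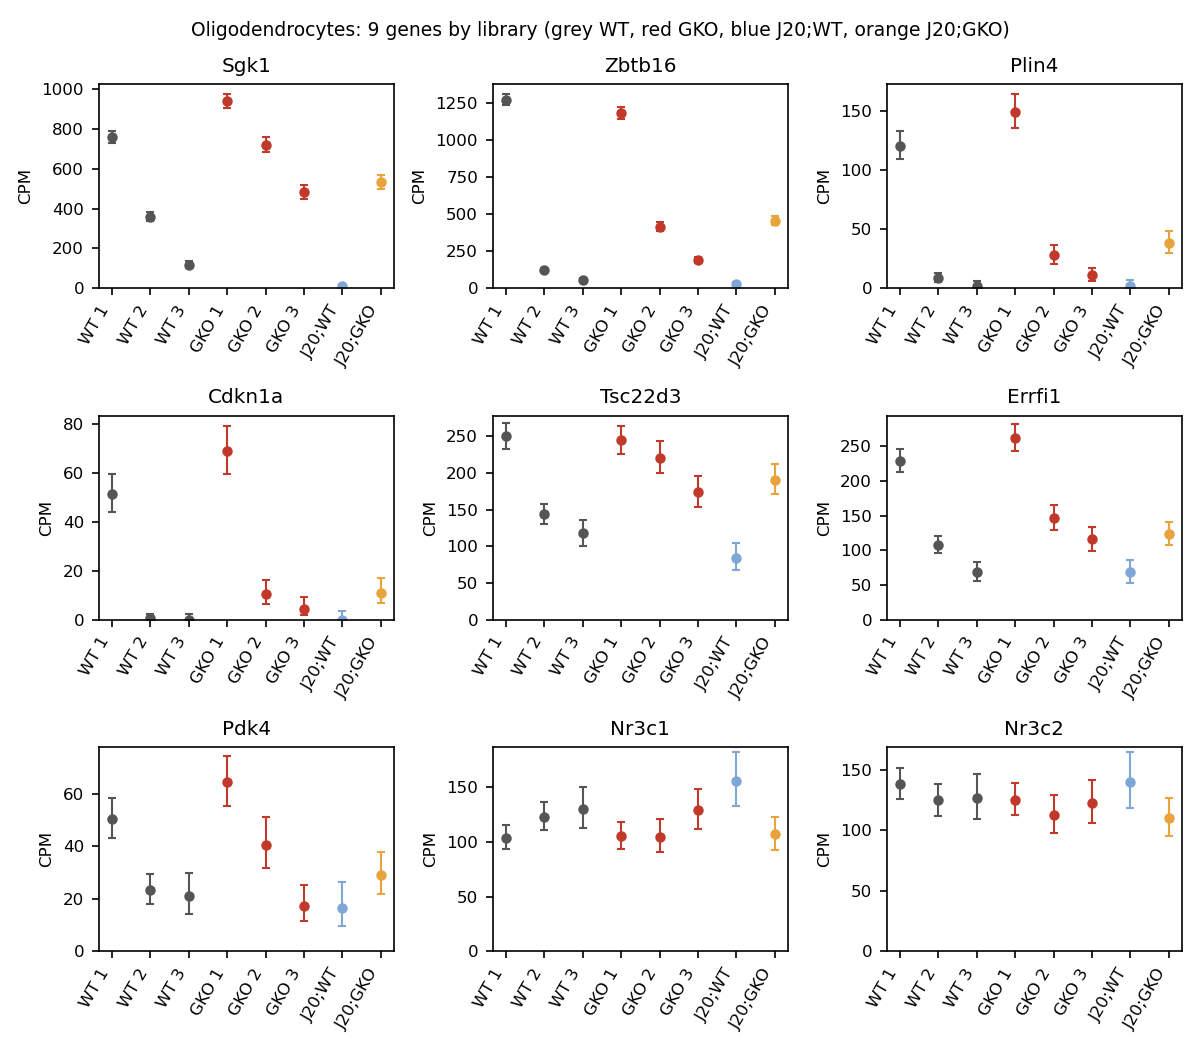
Levels of 9 members in oligodendrocytes, in CPM with exact Poisson 95% intervals, for each library (grey, WT, red, GKO, blue, J20;WT, orange, J20;GKO). Sgk1 ranges from 13.6 to 937 CPM and Zbtb16 from 28.25 to 1274 CPM, whereas the receptor genes differ by less than 2-fold between libraries.

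Outside oligodendrocytes the members kept or lost this spread depending on the class. Zbtb16 spread widely in each glial class. In astrocytes it was at 489, 78.45 and 46.6 CPM in WT mice, at 487, 212 and 136 CPM in GKO mice, at 28.2 CPM in J20;WT and at 232 CPM in J20;GKO. In OPCs it was at 572, 75.75 and 22.8 CPM in WT mice, at 644.5, 208 and 107 CPM in GKO mice, at 39.7 CPM in J20;WT and at 229 CPM in J20;GKO. In microglia the ratio of highest to lowest was 28.6, with an interval from 9.61 to 140.3 since J20;WT had 3 UMIs, and in neurons Zbtb16 ranged only from 158 to 363 CPM. Tsc22d3 spread more in astrocytes and microglia than in oligodendrocytes. It ranged from 44.2 CPM in J20;WT to 330.5 CPM in GKO 1 in astrocytes, and from 22.1 to 237 CPM between the same libraries in microglia. Sgk1 in neurons, with 19488 UMIs, ranged from 91.35 to 113 CPM, a ratio of 1.23 (1.16 to 1.31), with J20;WT, at 99.2 CPM, inside the range of the others. Its range was 5.59 to 45.25 CPM in astrocytes, 64.8 to 164 CPM in microglia and 125 to 451 CPM in OPCs. Cdkn1a and Plin4 were scarce in neurons, at 0.567 to 3.06 CPM and 0.681 to 2.64 CPM, with WT 1 and GKO 1 the 2 highest libraries for both genes. Errfi1 in microglia was at 31.3 ± 3.70 CPM in WT mice and 41.3 ± 3.19 CPM in GKO mice (SD, n = 3 each). It was the only one of the 43 combinations whose WT and GKO ranges did not overlap. No share of all genes with such ranges is set beside this count, which is a description and supports nothing further. For Errfi1 in microglia the edgeR log2 fold change was 0.36 (SE 0.27) with an adjusted p of 0.999. The gene had 152 UMIs there over all 8 libraries, of which J20;WT and J20;GKO, not in this fit, held 16 each.

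The spread was set against that of all genes with at least 200 UMIs in a class. In oligodendrocytes 8 of 10 members had a difference of at least 2-fold between the highest and lowest library on log2(CPM + 1), against 23.6% of 8589 genes. The counts were 5 of 8 members in astrocytes (23.5% of 7960 genes), 4 of 6 in microglia (27.3% of 4428), 4 of 6 in OPCs (23.3% of 5021) and 4 of 9 in neurons (9.46% of 15820). Since the members were picked because Fkbp5 differed between mice, these shares describe them and support nothing further. By ratio of highest to lowest, with a gene at 0 in a library taken at its lower bound, Plin4, Sgk1, Zbtb16 and Fkbp5 ranked 7, 8, 11 and 13 among the 8589 genes in oligodendrocytes, and Cdkn1a, for which only a lower bound is known, is given no rank. The rank of Sgk1 rests on J20;WT alone. J20;WT was also the lowest library in oligodendrocytes for Plin4, on 2 UMIs, and for Zbtb16, at 28.25 CPM with WT 3 next at 55.5 CPM. The receptor genes Nr3c1 and Nr3c2 ranked 5792 and 7970 there, with ratios of 1.498 and 1.27 against a median of 1.66 over all genes. In astrocytes Fkbp5 ranked 4 and Zbtb16 ranked 22 of 7960, and in microglia Zbtb16 ranked 10, Fkbp5 15 and Tsc22d3 19 of 4428. The astrocyte rank of Fkbp5 rests on 2 UMIs in J20;WT, and its ratio was 150.5 with the J20 libraries and 30.5 without them. In neurons Cdkn1a ranked 161, Fkbp5 688 and Sgk1 13686 of 15820.

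**Figure D3:**
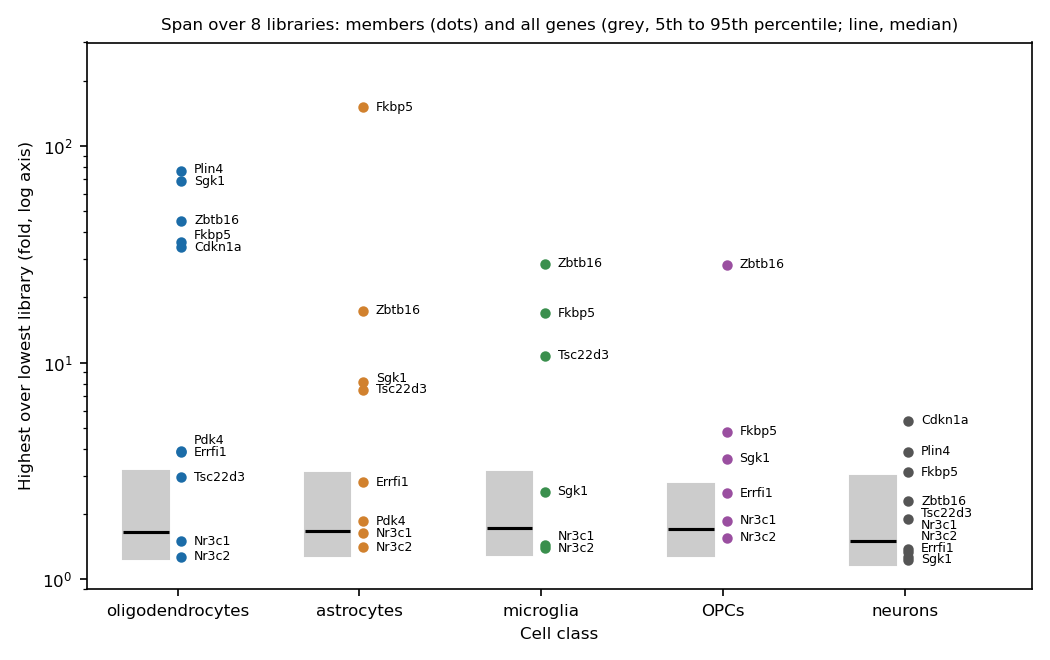
Ratio of the highest to the lowest of 8 libraries on a log axis in 5 classes, for members (dots) and for all genes with at least 200 UMIs (grey bar, 5th to 95th percentile, line, median). Fkbp5 lies above the grey bar in each class, the receptor genes lie inside it, and Cdkn1a in oligodendrocytes is a lower bound in which a library at 0 was set to 3 UMIs.

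A further count was set after the Fkbp5 values had been seen and is given as a description. The 2 libraries of the earliest date, WT 1 and GKO 1, were the 2 highest of 8 for 8 of 10 members in oligodendrocytes, against 13.4% of all genes, and for 5 of 8 in astrocytes, against 11.4%. It was 3 of 6 members in microglia (13.4% of all genes), 5 of 6 in OPCs (11.3%) and 5 of 9 in neurons (10.6%). Among classes in which a gene had at least 50 UMIs, this held for Zbtb16 in 5 of 5, Tsc22d3 in 4 of 4, Plin4 in 3 of 3, Cdkn1a in 3 of 3, Sgk1 in 3 of 5, Errfi1 in 3 of 5, Pdk4 in 2 of 3, Nr3c1 in 1 of 5 and Nr3c2 in 0 of 5.

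The receptor genes differed between cell classes far more than between mice. Nr3c2 (ENSMUSG00000031618, chromosome 8, 76899442 to 77245012, plus strand) was highest in neurons, at 599.6, 714 and 750.3 CPM in WT mice, 652.5, 617 and 589.6 CPM in GKO mice, 770.0 CPM in J20;WT and 579.9 CPM in J20;GKO. Its range was 242 to 339.9 CPM in astrocytes, 167 to 233 CPM in microglia, 110.5 to 140.3 CPM in oligodendrocytes and 96.15 to 149.6 CPM in OPCs. Nr3c1 (ENSMUSG00000024431) was highest in microglia, at 178, 206 and 179.5 CPM in WT mice, 188, 157 and 188 CPM in GKO mice, 143.5 CPM in J20;WT and 144 CPM in J20;GKO. Its range was 104 to 156 CPM in oligodendrocytes, 84.5 to 137.5 CPM in astrocytes, 76.3 to 142 CPM in OPCs and 45.1 to 61.9 CPM in neurons, where it was lowest. The UMIs of Nr3c2 divided by those of Nr3c1 were 9.79 to 12.9 in neurons, 2.24 to 3.25 in astrocytes, 1.015 to 1.96 in OPCs, 0.931 to 1.38 in microglia and 0.900 to 1.33 in oligodendrocytes. UMIs are not scaled to transcript length, so that this ratio is read only between classes.

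**Figure D4:**
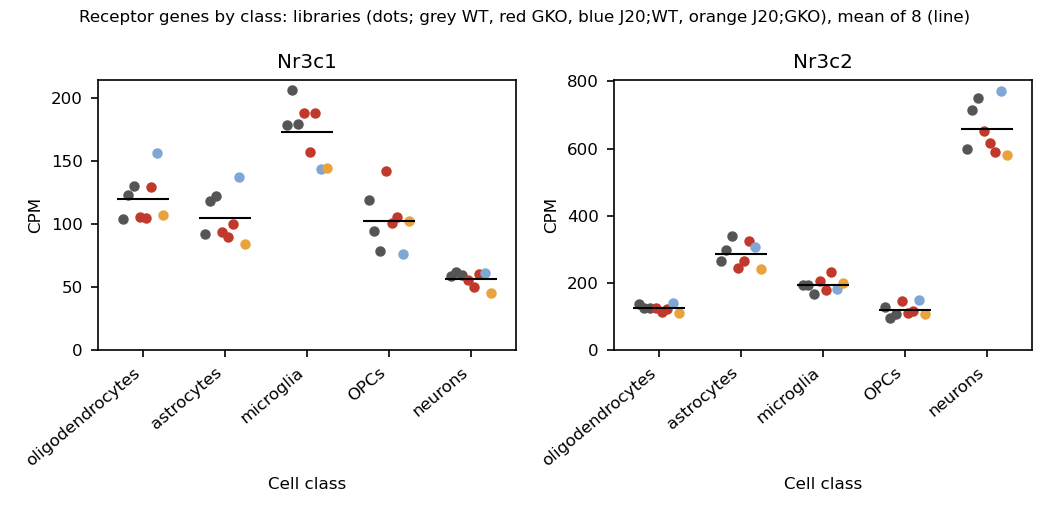
Nr3c1 and Nr3c2 in CPM in 5 classes, with a dot per library and a line at the mean of 8. Nr3c2 is highest in neurons, at 579.9 to 770.0 CPM, and Nr3c1 is highest in microglia and lowest in neurons, at 45.1 to 61.9 CPM.

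Levels of each member were compared between neighbouring classes in their order, within the same mouse, which the choice of members did not use. An exact 2-sided paired permutation test over the 8 mice on log2(CPM + 1), with adjustment over all 40 pairs of 10 members, found 20 pairs past an adjusted p of 0.05. The smallest p that 8 mice allow is 0.00781, which adjusts to 0.0184, and unless given otherwise it is the p of each difference below, with all 8 mice in the same direction. Nr3c2 was higher in neurons than in astrocytes by 1.20 on the log2 scale, higher in astrocytes than in microglia by 0.55 and higher in microglia than in oligodendrocytes by 0.63, while oligodendrocytes and OPCs did not differ beyond the spread (difference 0.07, exact p = 0.328, adjusted p = 0.547, higher in 6 of 8 mice). Nr3c1 was higher in microglia than in oligodendrocytes by 0.53 (7 of 8 mice, exact p = 0.0156, adjusted p = 0.0329) and higher in oligodendrocytes than in astrocytes by 0.20. Astrocytes and OPCs did not differ beyond the spread for Nr3c1, and OPCs exceeded neurons by 0.83.

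Among the targets, Fkbp5 was higher in microglia than in OPCs by 2.50. OPCs, neurons and oligodendrocytes could not be ordered for Fkbp5, with OPCs above neurons by 0.35 in 7 of 8 mice (exact p = 0.0391, adjusted p = 0.0710), and neurons above oligodendrocytes by 0.12 in 4 of 8 (exact p = 0.828, adjusted p = 0.881). Oligodendrocytes exceeded astrocytes in Fkbp5 by 1.31. Sgk1 was higher in oligodendrocytes than in OPCs in 6 of 8 mice, but J20;WT, at 13.6 CPM in oligodendrocytes and 125 CPM in OPCs, lay far on the other side and the difference did not pass (0.26, exact p = 0.664, adjusted p = 0.830). It was 1.34 higher in OPCs than in microglia, did not differ beyond the spread between microglia and neurons, and was 2.58 higher in neurons than in astrocytes. Tsc22d3 was in the same range in oligodendrocytes and astrocytes, 0.96 higher in astrocytes than in microglia and 3.29 higher in microglia than in neurons. Zbtb16 in neurons and oligodendrocytes did not differ beyond the spread, and it was 0.75 higher in oligodendrocytes than in astrocytes and 2.06 higher in OPCs than in microglia. Pdk4 and Plin4 were highest in astrocytes and oligodendrocytes. Pdk4 was higher in astrocytes than in oligodendrocytes by 0.64 (7 of 8 mice, exact p = 0.0234, adjusted p = 0.0469) and higher in oligodendrocytes than in neurons by 4.20. Plin4 was higher in oligodendrocytes than in astrocytes by 2.21 and higher in astrocytes than in neurons by 0.94. In astrocytes Plin4 had only 60 UMIs over the 8 libraries, with 1 UMI in WT 3, the lowest. GKO 3 was at 1.035 CPM in astrocytes and 1.004 CPM in neurons, so the direction against neurons in single mice rests on few UMIs. Errfi1 was higher in oligodendrocytes than in OPCs by 1.34 and higher in OPCs than in neurons by 0.44 (7 of 8 mice, exact p = 0.0156, adjusted p = 0.0329). For Cdkn1a no pair passed. Without the J20 libraries no pair of any member passed in this exact test, where the smallest p that 6 mice allow, 0.03125, adjusted to 0.0735.

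The comparison of GKO with WT mice asks whether the GKO label goes with different levels of these genes. Since the members were picked because Fkbp5 differed between mice whatever the label, the lack of a call for Fkbp5 and for genes that vary with it is partly set by that choice and is given as a description. On sums of UMIs per mouse and class, edgeR's quasi-likelihood test called 0 genes, where a call needed an adjusted p below 0.05 together with an absolute log2 fold change above 0.3, in oligodendrocytes (0% of 11491 tested), astrocytes (0% of 11456), microglia (0% of 7939), OPCs (0% of 9341) and neurons (0% of 18292). At an unadjusted p under 0.05 it found 165, 220, 214, 219 and 228 genes in these classes (1.44%, 1.92%, 2.7%, 2.34% and 1.25%), and DESeq2 called 0 genes, with 41, 47, 47, 48 and 131 at an unadjusted p under 0.05. Of the 50 combinations of member and class, 41 passed the low-count filter and were tested. None was called and none reached an unadjusted p under 0.05, with 29 estimates positive and 12 negative. The lowest adjusted p of a member was 0.999 by edgeR. Without GKO 1 the tally turned to 10 positive and 31 negative. Without WT 1 it was 33 positive and 8 negative, with 7 estimates at an unadjusted p under 0.05 and 0 called. With all WT and GKO mice, the median log2 fold change of the members tested was 0.39 in oligodendrocytes, 0.17 in astrocytes, 0.36 in microglia, 0.23 in OPCs and -0.05 in neurons. The median over all genes lay between -0.0016 in microglia and 0.0037 in neurons. These estimates had wide errors where mice differed most. For Fkbp5 the log2 fold change was 0.53 (SE 1.59) in oligodendrocytes, 0.40 (SE 1.75) in astrocytes, 0.75 (SE 1.07) in microglia, 0.41 (SE 0.63) in OPCs and 0.25 (SE 0.26) in neurons. Its direction rested on single libraries except in microglia: without GKO 1 it was -0.65, -2.02, 0.27, -0.04 and -0.01 in the same classes, without WT 1 it was 3.30, 3.05, 2.22, 1.16 and 0.55, and in astrocytes it was -0.06 without WT 2 and -0.07 without WT 3. For the receptors the estimates were narrower. Nr3c1 was at -0.05 (SE 0.15) in oligodendrocytes and -0.09 (SE 0.10) in neurons, and Nr3c2 at -0.09 (SE 0.12) and -0.13 (SE 0.12).

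With the replicate number as a block, which pairs WT 1 with GKO 1, WT 2 with GKO 2 and WT 3 with GKO 3 and so also compares mice of 1 date, edgeR called 2 genes in oligodendrocytes, 2 in astrocytes, 0 in microglia, 8 in OPCs and 0 in neurons, none of them a member. With the date in place of the block, edgeR called 0 genes in each class (604, 578, 497, 428 and 620 at an unadjusted p under 0.05), and 9 of 41 member estimates reached an unadjusted p under 0.05. Under the block 5.42%, 5.29%, 6.25%, 4.92% and 3.37% of all genes in the 5 classes and 11 of 41 member estimates reached an unadjusted p under 0.05, where the members, which vary together, do not count as separate results. They were Tsc22d3, Errfi1, Pdk4 and Plin4 in oligodendrocytes, Tsc22d3 and Fkbp5 in astrocytes, Tsc22d3 and Zbtb16 in microglia, Sgk1 and Fkbp5 in OPCs, and Fkbp5 in neurons. All 11 were higher in GKO, and none passed the adjustment over all genes. The lowest adjusted p by edgeR under the block was 0.1925, for Tsc22d3 in astrocytes (log2 fold change 0.57, SE 0.13). For Fkbp5 the estimates under the block were 1.12 (SE 0.69) in oligodendrocytes, 0.54 (SE 0.15) in astrocytes, 1.19 (SE 0.43) in microglia, 0.47 (SE 0.15) in OPCs and 0.26 (SE 0.06) in neurons.

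Within 1 date the genotypes were compared on mice 2 and 3 alone, a comparison added after the data had been seen. WT 1 and GKO 1, of the other date, are 1 mouse a genotype and allow no test. In oligodendrocytes the Fkbp5 mean of GKO 2 and 3 was 128 CPM against 28.45 CPM in WT 2 and 3, a ratio of 4.50, while GKO 1 was 1.105 times WT 1. In microglia the means were 1176 and 339 CPM, a ratio of 3.47, against 1.14 in the mice of the earliest date. Both GKO mice lay above both WT mice in these classes and in OPCs, and the ranges overlapped in astrocytes and neurons. No share of all genes with such an order is set beside this. The classes come from the same mice and do not count as separate results, so the order is a description. On these 4 mice edgeR called 0 genes in oligodendrocytes, astrocytes and neurons, 4 in microglia and 2 in OPCs (Top2a and mt-Nd5, named here after their values were seen), none of them a member. At an unadjusted p under 0.05 were 5.84%, 5.94%, 5.81%, 4.56% and 3.24% of all genes and 11 of 39 member estimates. The member count is a description and supports nothing further, since the members were picked for a gene that varies between mice, vary together, and are read here without the 2 libraries highest in Fkbp5. They were Tsc22d3, Errfi1 and Plin4 in oligodendrocytes, Tsc22d3, Zbtb16 and Nr3c1 in astrocytes, Tsc22d3 in microglia, Sgk1, Zbtb16 and Fkbp5 in OPCs, and Nr3c2 in neurons. The lowest adjusted p by edgeR was 0.264. Nr3c1 in astrocytes (log2 fold change -0.35, SE 0.15) and Nr3c2 in neurons (-0.27, SE 0.09) were lower in GKO, and the other 9 were higher. For Fkbp5 the log2 fold change within the date was 2.11 (SE 1.01) in oligodendrocytes, 0.62 (SE 0.41) in astrocytes, 1.73 (SE 0.77) in microglia, 0.70 (SE 0.23) in OPCs and 0.29 (SE 0.13) in neurons.

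**Figure D5:**
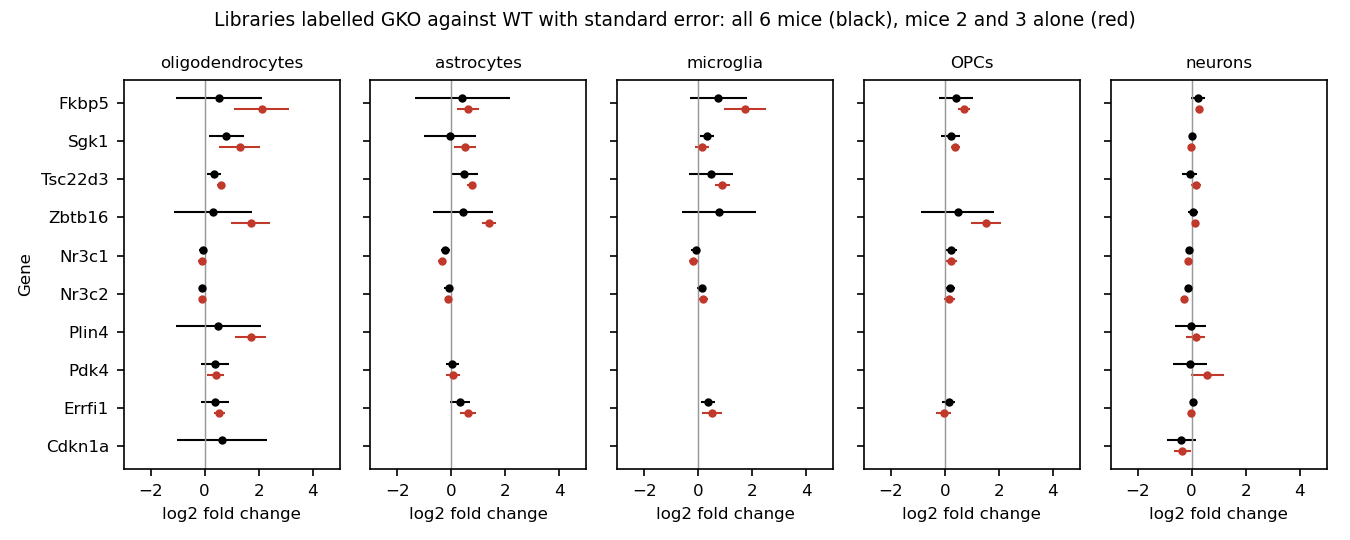
Log2 fold change of GKO over WT with its standard error for the members in 5 classes, from edgeR on all 6 mice (black) and on mice 2 and 3 alone (red). For Fkbp5 in oligodendrocytes the estimate is 0.53 on 6 mice and 2.11 on 4, and a missing point is a member that did not pass the low-count filter.

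The J20 pair was 1 mouse against 1, of different dates and with different sex-linked transcripts, so genotype, date and the sex-linked difference cannot be told apart and no test was made. Fkbp5 was higher in J20;GKO than in J20;WT in each class. The ratio was 13.4 in oligodendrocytes (exact 95% interval 8.25 to 23.2, 397 UMIs against 17), 51.0 in astrocytes (13.7 to 428, 89 UMIs against 2), 11.6 in microglia (8.84 to 15.6), 3.02 in OPCs (1.85 to 5.155) and 2.30 in neurons (2.13 to 2.48). Among other targets in oligodendrocytes, the ratio was 39.0 for Sgk1 (23.1 to 71.5). It was 16.1 for Zbtb16 (11.15 to 24.3). It was 19.5 for Plin4 (5.19 to 164). The receptors went the other way in some classes. The ratio of Nr3c1 was 0.6875 in oligodendrocytes (0.5545 to 0.853), 0.6145 in astrocytes and 0.732 in neurons, and that of Nr3c2 was 0.788, 0.786 and 0.753. Of the 43 combinations with 50 UMIs, the interval lay above 1 in 20, below 1 in 6 and held 1 in 16. Of all 63289 combinations of a gene and a class with 50 UMIs, counted after the member values were seen, it lay above 1 in 9.43% and below 1 in 11.9%, with 18.5% and 21.7% in neurons, 6.09% and 11.4% in oligodendrocytes, 6.09% and 7.48% in astrocytes, 5.65% and 6.25% in microglia, and 3.885% and 4.58% in OPCs. Cdkn1a in oligodendrocytes, with 20 UMIs in J20;GKO and 0 in J20;WT, had no ratio. The member counts are a description and support nothing further. The Fkbp5 values that picked the members include those of this pair, and the members vary together and do not count as separate results.

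Genes most like Fkbp5 over the 8 libraries were found by Pearson correlation of log2(CPM + 1), among genes with at least 200 UMIs and a 2-fold span in the class. The 8 points share library, date and sex-linked difference, so the values are descriptions. In oligodendrocytes, among 2026 genes, the 5 highest included Hif3a (r = 0.996, rho = 1.00), Rab31 (0.995, 1.00), Hip1 (0.991, 0.929) and the member Plin4 (0.989, 1.00), and without the 2 libraries farthest from the median r was 0.982 to 0.996 for these 4. Cdkn1a ranked 10, Zbtb16 ranked 13, and Sgk1 ranked 276 (r = 0.7955). Hif3a, a hypoxia-inducible factor subunit, was at 144.5, 13.0 and 8.79 CPM in WT mice, 157, 57.7 and 24.98 CPM in GKO mice, 7.79 CPM in J20;WT and 61.4 CPM in J20;GKO. In astrocytes, among 1871 genes, the 5 highest included Klf13 (r = 0.989), Klhl2 (0.985), E230001N04Rik (0.980) and Azin1 (0.979). The summed level of all 10 oligodendrocyte markers in astrocytes, each of them detected, was 459, 273 and 254 CPM in WT mice, 426, 333 and 272 CPM in GKO mice, 221 CPM in J20;WT and 403 CPM in J20;GKO, and the part of this in the astrocyte values was not tested. In microglia, among 1209 genes, the 5 highest were Ppp1r21 (0.976), Fam168a (0.975), Anapc16 (0.975), Ccnd3 (0.974) and Mras (0.971). Ccnd3, a D-type cyclin, was at 2594 CPM in WT 1 and 2891 CPM in GKO 1 and lowest in WT 3, at 436 CPM. In OPCs, among 1172 genes, the 5 highest were Klf9 (0.978), Gm11417 (0.975), Paqr8 (0.970), Fry (0.965) and Afg1l (0.961), and in neurons, among 1496, Synpo2 (0.972), Fam196b (0.945), Spns2 (0.941), Acss1 (0.937) and Tcerg1l (0.936). Without the 2 libraries farthest from the median, r for these 5 in neurons was 0.920, 0.9385, 0.762, 0.841 and 0.994. For Zbtb16 in neurons it was 0.904 on all 8 libraries and 0.662 without those 2. Zbtb16 was the only gene among the 50 most alike in at least 3 classes, at rank 13 in oligodendrocytes, 28 in astrocytes, 14 in OPCs and 15 in neurons.

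A list of 20 further glucocorticoid target genes was read in the same way. Its summed level in astrocytes was 5600 CPM in WT 1, 3454 CPM in WT 2, 3176 CPM in WT 3, 6425 CPM in GKO 1, 4524 CPM in GKO 2, 3414 CPM in GKO 3, 2860 CPM in J20;WT and 4194 CPM in J20;GKO, with Mertk, a receptor for engulfment of dying cells and synapses, the most abundant. GKO 1 and WT 1 were the highest and J20;WT the lowest in astrocytes, as in oligodendrocytes, but in microglia GKO 2 (3342 CPM) exceeded WT 1 (3265 CPM), and the lowest library was WT 3 in microglia and OPCs and J20;GKO in neurons. The widest spans in astrocytes were those of Sult1a1, a sulfotransferase, at 48.45, 8.85 and 10.2 CPM in WT mice, 61.6, 21.4 and 11.4 CPM in GKO mice, 1.23 CPM in J20;WT (1 UMI) and 36.6 CPM in J20;GKO, of Hif3a, from 49.35 CPM in WT 3 to 376 CPM in GKO 1, and of Arrdc2, from 6.52 to 41.05 CPM in the same libraries. The list sum ranged from 544.6 to 1600.1 CPM in oligodendrocytes, 2306 to 3703 CPM in microglia, 459 to 1451 CPM in OPCs and 245 to 354 CPM in neurons. Between GKO and WT edgeR called 0 of the genes of the list. Of those tested, 13 were higher and 2 lower in oligodendrocytes, 16 and 2 in astrocytes, 8 and 2 in microglia, 10 and 1 in OPCs, and 9 and 9 in neurons, at medians of 0.34, 0.23, 0.39, 0.38 and 0.0006. Medians over all genes lay between -0.0016 and 0.0037. GKO 1 had the highest list sum in each glial class, and the counts were not repeated without it. Genes of a list are not separate results, so counts by direction, here and for the lists below, are descriptions and support nothing further. Glul in microglia and Bcl6 in OPCs had an unadjusted p under 0.05.

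The other lists concern the receptor complex and the circadian clock. The 12 genes of receptor chaperones, coregulators and steroid handling summed to 1491 to 2299 CPM in oligodendrocytes, where the widest spans were 3.735 for Stip1, 3.49 for Hsp90aa1 and 2.64 for Hsp90ab1, chaperones lowest in J20;WT for all 3. Between GKO and WT 7 of 10 tested were higher in oligodendrocytes, 6 of 11 in astrocytes, 6 of 10 in microglia, 6 of 10 in OPCs and 6 of 12 in neurons, and the chaperone Hspa8 was lower at an unadjusted p under 0.05 in oligodendrocytes (log2 fold change -0.36, SE 0.15) and neurons (-0.33, SE 0.10). The 14 clock genes, which set daily rhythms, summed to 984 to 1132 CPM in astrocytes. There the period gene Per1, also a glucocorticoid target, was at 51.2, 63.1 and 47.5 CPM in WT mice, 58.8, 73.4 and 68.85 CPM in GKO mice, 12.3 CPM in J20;WT and 52.1 CPM in J20;GKO, so that WT 1 and GKO 1 did not stand apart. Next were Ciart, with a ratio of 3.64 on 62 UMIs, and Dbp, with 3.25, which was highest in J20;WT at 50.3 CPM. Of the clock genes tested, 9 of 13 were higher in GKO in oligodendrocytes, 10 of 12 in astrocytes, 5 of 6 in microglia, 7 of 9 in OPCs and 9 of 13 in neurons, with an unadjusted p under 0.05 for Tef in oligodendrocytes, Tef and Hlf in microglia, and Per2 and Ciart in neurons. None of these genes was called by edgeR.

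Lists of acute responses and of sex-linked genes were read beside them. The 10 immediate early genes, induced by neuronal activity, summed to 94.65 CPM in GKO 1 and 99.4 CPM in WT 1 and to 177 CPM in GKO 3 in neurons, so the libraries highest in Fkbp5 were the lowest here. The widest spans were 4.55 for Fos (3.37 to 6.205), 4.23 for Ier2 (2.56 to 7.28) and 3.165 for Fosb. Of those tested in neurons, 3 were higher and 7 lower in GKO, and 2 and 3 in oligodendrocytes, 2 and 2 in astrocytes, 1 and 0 in microglia, and 1 and 0 in OPCs. The 6 heat shock genes, chaperones of stressed cells, summed to 271 to 550.5 CPM in OPCs, with ratios of 4.24 for Hsph1 (1.96 to 10.9), 2.86 for Dnajb1 (0.347 to 131.7, 1 UMI in the lowest library) and 2.76 for Hspa5 (2.24 to 3.41). Between GKO and WT 3 of 4 were higher in oligodendrocytes, 1 of 3 in astrocytes, 1 of 2 in microglia, 0 of 2 in OPCs and 2 of 5 in neurons, and Hspa5 in microglia had an unadjusted p under 0.05 by edgeR (log2 fold change -0.44, SE 0.20). Of the 6 sex-linked genes Xist spread at least 1117-fold in oligodendrocytes, Eif2s3y at least 255.5-fold and Tsix at least 206-fold, each against a floor of 3 UMIs in a library at 0, and edgeR called 0 of the 4 Y-linked genes, the only ones of the list that passed the low-count filter in the glial classes, and 0 of all 6 in neurons.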

How the data were processed

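The members and gene lists were chosen with earlier results of these data known. The files deposited hold UMI counts per gene and nucleus, made with Cell Ranger 3.0.2 per the file headers and aligned to mm10 by the authors, whose processing notes also name Seurat 3.0 and R 3.6.2. From these counts, nuclei with 200 to 7500 genes and at most 5% mitochondrial UMIs were kept, 32041 of 33314. Doublets were not removed. A nucleus was given a class when its marker score was at least 0.25 and 2 times the next. UMIs were summed per library and class, and CPM were computed from the sums. GKO and WT were compared with edgeR 4.0.16 (TMM scaling, filterByExpr, robust quasi-likelihood) in R 4.3.3, with Benjamini-Hochberg adjustment over all genes tested, after a check on simulated data. DESeq2 1.42.0, other scaling, no low-count filter, stricter gates, a block, a date term and fits without 1 mouse were the alternatives. Python 3.11.15, numpy 2.4.6, pandas 2.3.3, scipy 1.17.1 and matplotlib 3.10.9 made the rest. Ratio intervals are exact conditional binomial. Mice of the same replicate number were taken as pairs because the labels number them and the correlations of log2 values over all nuclei, each taken from its group mean, were 0.57, 0.185 and 0.219. Mice of 1 date with different numbers correlated as closely, at 0.216 and 0.303, and pair 2 reached only 0.099 in oligodendrocytes and 0.074 in OPCs. Beside the members, the text names genes from the 5 most like Fkbp5 in each class, the 3 widest spans of each list in the class where it is most abundant, and list genes with an unadjusted p under 0.05. Other genes named were chosen after their values were seen. Some results under these rules are not reported here.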

Additional observations from a re-analysis of the deposited data

How the results depend on the processing

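Of 206 alternative values, 187 stayed the same, 13 moved and 6 reversed, where fold changes were judged by direction and call only, not by size. With the replicate block, edgeR called 2 genes in oligodendrocytes (Mat2a and CT009510.2), 2 in astrocytes (Usp53 and Col25a1) and 8 in OPCs, and it changed no other call. Without the low-count filter it called 4 in astrocytes, and within the date of mice 2 and 3 it called 4 in microglia and 2 in OPCs. Leaving out 1 mouse gave 0 to 1 called genes in microglia and 0 in the other classes. It moved the Fkbp5 log2 fold change between -0.65 and 3.30 in oligodendrocytes, -2.02 and 3.05 in astrocytes, 0.27 and 2.22 in microglia, -0.04 and 1.16 in OPCs, and -0.01 and 0.55 in neurons. The reversed values were those without GKO 1 in oligodendrocytes, astrocytes, OPCs and neurons, and those in astrocytes without WT 2 (-0.06) and without WT 3 (-0.07), and the cause was not tested. Without the J20 libraries 0 class pairs passed, at a smallest adjusted p of 0.0735 in the exact test. The Fkbp5 ratio of highest to lowest library was 30.5 in astrocytes and 2.02 in neurons without the J20 libraries, 6.497 in microglia and 2.81 in neurons as a share of nuclei after thinning, and 3.39 in neurons with TMM scaling, and the cause was not tested. The share has a ceiling, which GKO 1 was near in microglia, so there its ratio and the CPM ratio are unlike measures. With 3 mice a group, the estimates had wide errors where mice differed most, as for Fkbp5 in oligodendrocytes and astrocytes. The size of difference that could have passed is not given here. In J20;WT several glial values rest on 1 to 3 UMIs.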

Other observations

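Neurons were also divided by markers. Fkbp5 in 5284 dentate granule neurons was at 216.7, 159.1 and 128.6 CPM in WT mice, 231.4, 180.9 and 168.5 CPM in GKO mice, 68.16 CPM in J20;WT and 163.8 CPM in J20;GKO. In 5455 CA1 neurons it was at 141.1, 77.2 and 59.6 CPM in WT mice, 151.9, 117.3 and 87.0 CPM in GKO mice, 47.9 CPM in J20;WT and 116.1 CPM in J20;GKO. In 1633 CA3 neurons J20;GKO was the highest library, at 146.5 CPM, and J20;WT the lowest, at 68.0 CPM. In 1190 inhibitory neurons Fkbp5 ranged from 29.05 CPM in J20;WT to 114.7 CPM in GKO 1. The UMIs of Nr3c2 over those of Nr3c1 were 16.65 to 41.3 in CA3 neurons, 11.95 to 28.2 in dentate granule neurons, 7.31 to 10.0 in CA1 neurons and 5.91 to 13.4 in inhibitory neurons. The value of 28.2 was that of J20;GKO, with 51 Nr3c1 UMIs, and WT 1 came next at 17.36. Nr3c2 in dentate granule neurons was at 882.5, 928.1 and 985.9 CPM in WT mice and 767.2, 765.8 and 840.4 CPM in GKO mice. These ranges did not overlap, whereas those in CA1, CA3 and inhibitory neurons did. J20;WT, at 656.3 CPM, lay below the GKO mice in dentate granule neurons, and J20;GKO was at 573.8 CPM. No share of all genes with such ranges is set beside this, and GKO and WT were not tested in these divisions of the neurons. It was named after its values were seen, is a description and supports nothing further.

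Rare classes gave few UMIs. Fkbp5 in mural cells and fibroblasts was at 1140.5 CPM in GKO 1 (89 UMIs, exact 95% interval 916 to 1403) and at 263 CPM in WT 1 (16 UMIs, 150 to 426.5), and at 0 CPM in WT 3 and 79.2 to 137 CPM in the other 5 libraries, on 3 to 6 UMIs each. In endothelial cells of WT 1 it was at 435 CPM on 11 UMIs (217 to 778), in GKO 1 at 171 CPM on 1 UMI (4.33 to 953) and in GKO 3 at 207 CPM on 3 UMIs (42.7 to 605), with 0 UMIs in the other 5 libraries.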
